A study of Mus musculus with 15 samples.

Results

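The genes described here are 9 genes of natural killer (NK) cells and cytotoxic lymphocytes, chosen by name, namely *Gzma*, *Gzmb*, *Prf1*, *Klrd1*, *Klrk1*, *Klrg1*, *Klrc1*, *Ncr1* and *Eomes*. Of these, 7 were rows of the table of 561 genes and all 7 were tested. *Klrg1* and *Ncr1* were not analysed here. The mRNAs were counted in spleen cells of female C57BL/6J mice aged 6 to 8 weeks by hybridisation to the probes of the nCounter Mouse Immunology Panel, which reads colour-coded barcodes without amplification. The 15 samples fell into 5 groups of 3. Sham mice underwent the procedures with neither burn nor radiation. WBIR mice received whole body irradiation of 9 Gy. RCI mice received a contact burn over 20% of the body surface together with the same irradiation. All 12 samples outside Sham were thus irradiated, and no group had a burn alone. RCI mice also had tribromoethanol anaesthesia, shaving, injected morphine, Lactated Ringer's solution and morphine in the drinking water. The study lists these steps for the burn procedure and not for irradiation alone. It describes the sham procedure with the burn model, as the same apart from burn and radiation. Sham mice may therefore have had these steps as well. If so, a difference between WBIR and Sham cannot be told apart from an effect of these steps. WBIR+MSC-EVs and RCI+MSC-EVs mice were given extracellular vesicles from a C57BL/6J bone marrow mesenchymal stem cell line into a vein 72 hours after injury. The study describes a saline injection for the other mice, and the labels name PBS for RCI alone. Spleens were taken 48 hours after that injection, and red blood cells were lysed before RNA was made. The methods describe triplicate runs, and the figure legend gives n = 3 for each experimental group. Neither says whether these were separate mice. Within every group, any 2 replicates differed by a chi-square per degree of freedom of 7.03 or more, which is beyond counting noise. The p-values below rest on the spread between samples within groups, pooled over the 5 groups, and this spread may be technical.

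NK cells and cytotoxic T cells kill target cells by releasing perforin, which opens the target's membrane, and granzymes, proteases that enter through it and start apoptosis. Whether an NK cell fires is set by pairs of opposing receptors. NKG2D, encoded by *Klrk1*, activates upon binding stress-induced ligands, while CD94, encoded by *Klrd1*, pairs with NKG2A, encoded by *Klrc1*, into a receptor that inhibits upon binding the non-classical MHC class I molecule Qa-1. Eomes is a T-box transcription factor required for the maturation of conventional NK cells and for effector CD8 T cells. *Klrd1*, *Klrk1* and *Klrc1* lie together in the NK gene complex of chromosome 6, where the RefSeq annotation of assembly GRCm38.p6 places only *Klrc3* and *Klrc2* between *Klrk1* and *Klrc1*. Probes for *Klrc1* could also capture the related *Klrc2* and *Klrc3*, and this was not assessed.

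Values below are scaled counts, which are barcode counts divided by the geometric mean of 14 reference genes of the same library and brought to a common level. Some of the reference genes themselves differed between Sham and the irradiated groups, as given under processing, so the scaled counts do not rest on stable genes alone. A library is the barcodes counted in 1 sample. Total counts ranged from 90127 to 598872 per library, and the members themselves were counted 22 to 1360 times each. The 3 libraries of lowest total were WBIR+MSC-EVs replicate 1, Sham replicate 2 and WBIR replicate 1. In each of these, all 7 members had their highest scaled count of the group. Of all tested genes, 66.7% were highest in Sham replicate 2, 39.7% in WBIR replicate 1 and 44.8% in WBIR+MSC-EVs replicate 1. The members lay a median of 1.62 on the log2 scale above the mean of the other replicates in Sham replicate 2, against 0.56 for all 426 tested genes. In WBIR replicate 1 the medians were 1.17 for the members and 0.01 for all genes, and in WBIR+MSC-EVs replicate 1 they were 1.20 and 0.04. RCI+MSC-EVs replicate 2, whose total was not among the lowest, also had all 7 members highest, by a median of 0.60 against 0.17. There 56.6% of all tested genes were highest. In the libraries named here the members thus deviated together by more than the median gene did. This did not hold in every library. The medians were 0.11 for the members and 0.25 for all genes in RCI replicate 2, and -0.135 and -0.136 in RCI+MSC-EVs replicate 3. The part of the low totals in these deviations was not tested. Results are given without the 3 libraries of lowest total as well where a call or its size changed with them.

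**Figure D1:**
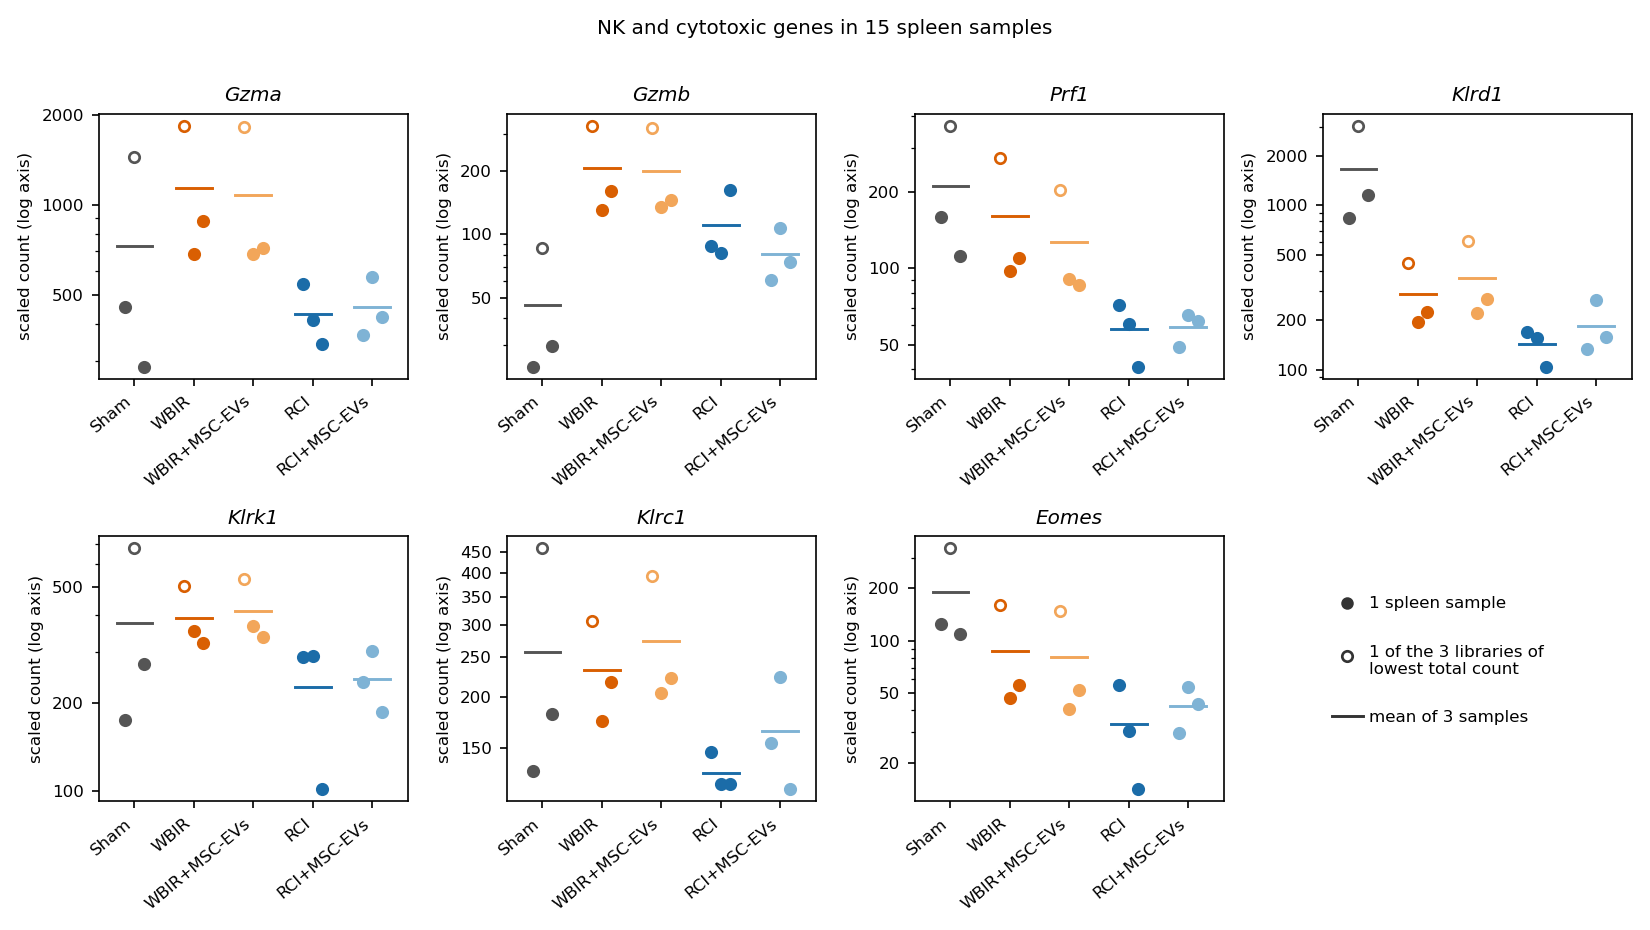
Scaled counts (log axis) of the 7 members in each of the 15 spleen samples, with 1 point per sample, a line at the mean of 3 samples and open points for the 3 libraries of lowest total. *Klrd1* lies between 830.6 and 3030 in Sham and at 601.2 or below in the irradiated samples, *Gzmb* lies higher in WBIR than in Sham, and the open points are the highest of their group for every member.

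*Gzmb*, which encodes the granzyme B protease, was scarce in Sham spleens and more abundant after irradiation. The scaled counts were 23.7, 86.1 and 29.5 in Sham replicates 1, 2 and 3. They were 326.5, 131.2 and 160.1 in WBIR and 87.7, 81.6 and 162.5 in RCI. All 3 WBIR samples lay above all 3 Sham samples, whereas RCI replicate 2 lay below Sham replicate 2. In mixed tissue such as this, fewer cells of a type and less RNA per cell cannot be told apart, and the same holds for more. *Gzmb* rose in WBIR by a log2 fold change (log2FC) of 2.25 (SE 0.55, edgeR quasi-likelihood test, adjusted p = 0.00223) and in RCI by 1.36 (SE 0.54, adjusted p = 0.0364). The WBIR call held under every setting tried. The RCI call was lost without Sham replicate 1 (log2FC 1.03, adjusted p = 0.138), without Sham replicate 3 (1.12, adjusted p = 0.129) and without RCI replicate 3 (0.99, adjusted p = 0.139). The RCI value was larger without Sham replicate 2 (2.06, adjusted p = 0.00446), without the 3 libraries of lowest total (2.06, adjusted p = 0.000701) and with TMM, a scaling over all tested genes (2.01, adjusted p = 0.00320).

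RCI replicate 3 stood apart for *Gzmb*. It held 254 *Gzmb* barcodes against 89 and 62 in RCI replicates 1 and 2, and at 162.5 it had the highest scaled count of its group, while it had the lowest of the group for 5 other members. The summed scaled count of the macrophage and monocyte markers was 39903 in that library against 14850 and 15892 in the other RCI replicates. Its part in the *Gzmb* value was not tested.

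*Gzma*, which encodes the more abundant granzyme A of resting NK cells, had scaled counts of 455.8, 1445 and 287.6 in Sham. The counts were 1832, 686.2 and 882.7 in WBIR and 543.7, 410.7 and 342.9 in RCI. The ranges of Sham overlapped those of both injuries. The log2FC of 0.65 (SE 0.56, adjusted p = 0.305) in WBIR and of -0.74 (SE 0.56, adjusted p = 0.248) in RCI did not pass the test with edgeR. *Gzma* was called higher in WBIR without Sham replicate 2 (log2FC 1.61, adjusted p = 0.0143) and without the 3 libraries of lowest total (1.08, adjusted p = 0.0112). With all libraries it was also called with TMM (1.46, adjusted p = 0.0152) and with median-of-ratios scaling (1.45, adjusted p = 0.0128). The RCI value turned to 0.22 without Sham replicate 2 or without those 3 libraries and was not called.

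*Prf1* encodes perforin. Its scaled counts were 160.1, 366 and 112.2 in Sham and 274.2, 97.9 and 110.1 in WBIR, with ranges that overlapped widely. In RCI they were 71.9, 60.6 and 40.9, and every RCI sample lay below every Sham sample. *Prf1* fell by 1.86 on the log2 scale in RCI (SE 0.51, adjusted p = 0.00481 with edgeR), whereas the log2FC of -0.39 in WBIR (SE 0.49, adjusted p = 0.489) was not called. The RCI call held in every alternative and with each library left out, at -1.24 without the 3 libraries of lowest total.

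The promoters of both granzyme genes are shown as examples. The ratio of *Gzmb* and of *Gzma* to *Klrd1*, given further on, separated Sham from every irradiated sample. This does not single them out, because the ratios of *Prf1*, *Klrk1* and *Klrc1* did so too. Of the 425 genes other than *Klrd1*, 50.6% lay above Sham in every irradiated sample. Each window runs from 250 bases before the RefSeq gene start to 50 bases after it, is read 5′ to 3′ on the gene's strand in build GRCm38.p6, and was found for 6 of the 7 members, all but *Klrd1*. *Gzma* lies at chr13:113100932-113101231 on the minus strand and *Gzmb* at chr14:56262285-56262584 on the minus strand. Capitals mark matches on either strand to the RUNX motif TGTGGTT or the AP-1 motif TGANTCA.
Gzma: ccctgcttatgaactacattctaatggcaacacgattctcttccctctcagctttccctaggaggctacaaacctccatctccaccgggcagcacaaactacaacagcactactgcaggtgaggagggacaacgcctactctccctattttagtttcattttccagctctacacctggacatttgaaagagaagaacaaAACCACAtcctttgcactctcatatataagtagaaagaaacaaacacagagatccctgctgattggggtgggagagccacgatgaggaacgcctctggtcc
Gzmb: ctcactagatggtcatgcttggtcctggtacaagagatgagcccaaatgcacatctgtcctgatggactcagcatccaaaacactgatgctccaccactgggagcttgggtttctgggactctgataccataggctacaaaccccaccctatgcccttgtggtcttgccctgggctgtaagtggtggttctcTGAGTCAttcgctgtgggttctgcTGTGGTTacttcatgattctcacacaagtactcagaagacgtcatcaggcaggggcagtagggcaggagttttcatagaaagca
The RUNX letters begin 51 bases before the start in *Gzma*, on the opposite strand, and 34 bases before it in *Gzmb*, and the AP-1 letters begin 58 bases before the start in *Gzmb*. *Klrk1* held both motifs too, the RUNX letters 129 bases before its start and the AP-1 letters from base 18 after it, while *Prf1*, *Klrc1* and *Eomes* held neither. Of all 32851 promoter windows of this length, 5.27% held the RUNX motif and 7.81% the AP-1 motif. The T-box motif GGTGTGA, the letters bound by Eomes and T-bet, was in 3.98% of windows and in none of the 6. These matches are letters in a window and were not tested for binding.

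*Klrd1*, the CD94 chain, had the largest fall of the members. Its scaled counts were 830.6, 3030 and 1147 in Sham, the highest level of any group. They were 445.2, 195.7 and 224.9 in WBIR, and 169.4, 156.7 and 104.3 in RCI. No irradiated sample reached the lowest Sham sample. *Klrd1* fell by 2.53 on the log2 scale in WBIR (SE 0.53, adjusted p = 0.000735) and had a log2FC of -3.54 in RCI (SE 0.56, adjusted p = 7.49e-05 with edgeR). Without the 3 libraries of lowest total these values were -2.23 and -2.79, both called.

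The other receptor chains of the same gene cluster were not called in either injury. *Klrk1*, the activating NKG2D receptor, had scaled counts of 175.6, 675.4 and 273.3 in Sham, 503.2, 353.6 and 320.2 in WBIR, and 288.6, 289.6 and 101.7 in RCI. Its log2FC was 0.08 (SE 0.47, adjusted p = 0.882) in WBIR and -0.71 (SE 0.47, adjusted p = 0.187) in RCI. *Klrc1*, which encodes NKG2A, the partner chain of CD94, had scaled counts of 131.9, 460.1 and 182.2 in Sham, 306.7, 174.6 and 217.4 in WBIR, and 146.8, 122.4 and 122.8 in RCI. The ranges of Sham and of both injuries overlapped for both genes, and Sham replicate 2 was the highest of the 9 samples for *Klrk1* and *Klrc1* alike. The log2FC of *Klrc1* was -0.13 (SE 0.42, adjusted p = 0.799) in WBIR and -0.96 (SE 0.43, adjusted p = 0.0590) in RCI. The RCI value was called without Sham replicate 1 (log2FC -1.28, adjusted p = 0.0155) and without Sham replicate 3 (-1.16, adjusted p = 0.0424), and it was -0.27 and not called without the 3 libraries of lowest total. It was also called with DESeq2 (-0.96, adjusted p = 0.0399) and with scaling to the median reference gene (-1.03, adjusted p = 0.0486). Scaling moved both genes in WBIR too. With TMM *Klrk1* had a log2FC of 0.86 in WBIR and was called higher, and *Klrc1* turned to 0.63.

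*Eomes* had scaled counts of 125.6, 339.1 and 109.6 in Sham. They were 159.7, 46.7 and 55.5 in WBIR, where the highest sample lay above 2 of the Sham samples, and 56.1, 30.3 and 14.1 in RCI, where none did. It fell by 2.50 on the log2 scale in RCI (SE 0.68, adjusted p = 0.00435 with edgeR). In WBIR the log2FC of -1.12 (SE 0.64, adjusted p = 0.133) was not called. Without WBIR replicate 1 it was -1.87 and called (adjusted p = 0.0283), and without the 3 libraries of lowest total it was -1.20 (adjusted p = 0.0564). The RCI fall rested on 22 to 57 barcodes per RCI library and was called in every alternative, at -1.83 without the 3 libraries of lowest total.

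In WBIR, 1 of the 7 members was called higher, where 21.6% of all 426 tested genes were, and 1 was called lower, where 46.9% were. The median log2FC was -0.13 over the members and -0.74 over all genes. In RCI, 1 member was called higher and 3 lower, beside 26.5% and 43.0% of all genes, and the medians were -0.96 and -0.53. With reference gene scaling and all libraries, none of these shares of the members exceeded its background. With TMM, 3 members were called higher in WBIR, beside 31.7% of all genes, and 1 lower, beside 35.2%. Scaling by TMM moved the median of all genes to -0.03 in WBIR and to 0.01 in RCI, a shift of every log2FC by about that difference. Under it *Gzmb* was still called higher and *Klrd1* lower in both injuries. Without the 3 libraries of lowest total, 2 members were called higher in WBIR, beside 21.8% of all genes, and 1 lower, beside 42.5%. In RCI 1 was called higher, beside 29.6%, and 3 lower, beside 40.1%.

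**Figure D2:**
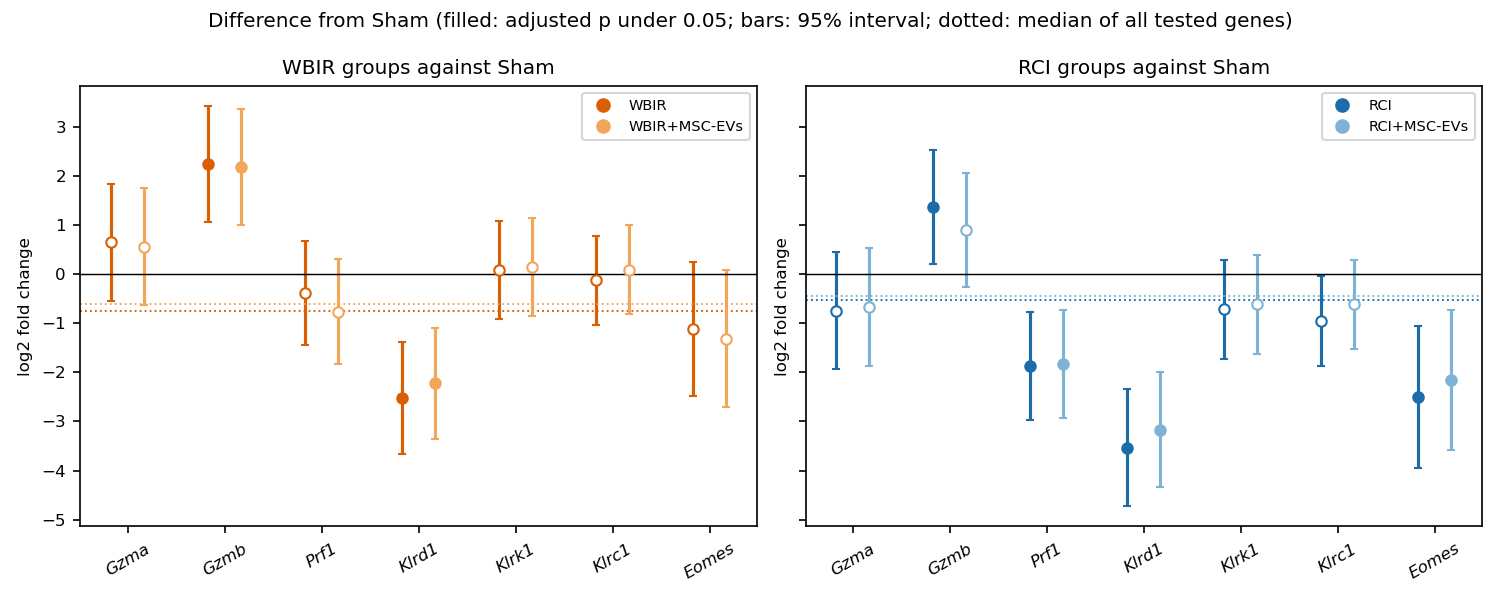
Log2 fold changes against Sham with 95% intervals for the 7 members, in WBIR with and without MSC-EVs (left) and in RCI with and without MSC-EVs (right). Filled points have an adjusted p under 0.05 and dotted lines mark the median of the 426 tested genes, so that *Gzmb* lies above 0 and *Klrd1* below it in both panels, with *Prf1* and *Eomes* called lower in the RCI panel.

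The MSC-EV groups against the same Sham samples gave a similar list, and the comparisons share those controls. In WBIR+MSC-EVs the scaled counts of *Gzmb* were 320, 135.1 and 145.5, all above Sham, and *Gzmb* rose by 2.18 (SE 0.55, adjusted p = 0.00303). *Klrd1*, at 601.2, 219.5 and 268.1, fell by 2.22 (SE 0.53, adjusted p = 0.00191). These were the 2 members called, 1 higher and 1 lower, beside 22.8% of all genes higher and 45.1% lower with edgeR. *Gzma* (log2FC 0.56, adjusted p = 0.382) was called without Sham replicate 2 (1.52, adjusted p = 0.0197), and *Eomes* (-1.31, adjusted p = 0.0881) was called without WBIR+MSC-EVs replicate 1 (-2.01, adjusted p = 0.0198). Without the 3 libraries of lowest total, both were called (0.91 and -1.33), with 2 members higher beside 23.7% of all genes and 2 lower beside 40.4%.

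In RCI+MSC-EVs the scaled counts of *Klrd1* were 132.9, 265.1 and 157.8, those of *Prf1* were 48.9, 65.7 and 62, and those of *Eomes* were 29.5, 54.3 and 43.2. All 9 of these values lay below the lowest Sham value of their gene. The log2FC was -3.17 for *Klrd1* (SE 0.55, adjusted p = 0.000179 with edgeR), -2.15 for *Eomes* (SE 0.67, adjusted p = 0.0109) and -1.83 for *Prf1* (SE 0.51, adjusted p = 0.00586). These 3 were the only members called, all lower, where 41.3% of all genes were called lower and 23.9% higher. The *Eomes* call was lost without Sham replicate 2 (-1.48, adjusted p = 0.0673). *Gzmb*, at 60.9, 107.3 and 73.6, had a log2FC of 0.89 (SE 0.54, adjusted p = 0.158), which was called without Sham replicate 2 (1.59, adjusted p = 0.0199) and without the 3 libraries of lowest total (1.59, adjusted p = 0.00366). Without those libraries *Prf1* and *Eomes* were at -1.21 and -1.48, both called.

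Markers of other lymphocytes fell in the irradiated groups. All 11 tested T cell markers and all 7 tested B cell markers were called lower in WBIR and in RCI. Of all 426 tested genes, 46.9% were called lower in WBIR and 43.0% in RCI. The median log2FC in WBIR and RCI was -2.74 and -2.57 for T cells and -4.71 and -4.67 for B cells. The summed scaled count of the T cell markers was 14082 to 22375 in Sham, 2082 to 2742 in WBIR and 2011 to 3241 in RCI. Granzymes, perforin, NKG2D and Eomes are among the products of this list made by T cells as well as NK cells. Each library was therefore also scaled to 5 T cell genes (*Cd3d*, *Cd3e*, *Cd5*, *Cd6* and *Cd28*) in place of the reference genes, which sets the level of those 5 genes equal between groups.

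Relative to those T cell genes, 6 of the 7 members were higher in WBIR than in Sham and none was lower, beside 70.7% of all genes higher and 7.75% lower. *Gzmb* was higher by a log2FC of 4.73 (SE 0.57, adjusted p = 2.23e-06), *Gzma* by 3.25 (SE 0.49, adjusted p = 2.37e-05) and *Eomes* by 1.42 (SE 0.55, adjusted p = 0.0259). The *Eomes* call was lost without Sham replicate 1 (1.28), Sham replicate 3 (1.28) or WBIR replicate 1 (0.59), and without the 3 libraries of lowest total (0.90). *Klrk1*, *Klrc1* and *Prf1* were higher by 2.62, 2.39 and 2.14. *Klrd1* was at 0.02 (SE 0.41, 95% interval -0.86 to 0.90, adjusted p = 0.971), while the median over all genes was 1.73.

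In RCI, 4 members were higher relative to the T cell genes and 1 was lower, beside 72.1% of all genes higher and 7.98% lower. *Gzmb* was higher by 3.80, *Gzma* by 1.69, *Klrk1* by 1.56 and *Klrc1* by 1.42, against a median of 1.77 over all genes. *Klrd1* was lower by a log2FC of -1.18 (SE 0.42, adjusted p = 0.0171 with edgeR). This call was lost without Sham replicate 2 (-0.83, adjusted p = 0.0936) and without RCI replicate 2 (-1.08, adjusted p = 0.0561). *Prf1* (0.48) and *Eomes* (-0.19) were not called, and *Prf1* was called higher without the 3 libraries of lowest total (0.75, adjusted p = 0.0237).

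A comparison free of any scaling is the ratio of a member's barcodes to the *Klrd1* barcodes of the same library. The choice of *Klrd1* was made after its fall had been seen, and the ratios are given as a description. In Sham there were 0.0285, 0.0284 and 0.0257 *Gzmb* barcodes per *Klrd1* barcode. In WBIR there were 0.733, 0.670 and 0.712, in WBIR+MSC-EVs 0.532, 0.615 and 0.543, and in RCI+MSC-EVs 0.458, 0.405 and 0.467. Replicates that differed widely in scaled counts, such as Sham replicate 2 and the other Sham samples, thus agreed closely in this ratio. RCI replicates 1 and 2 had 0.517 and 0.521, while RCI replicate 3 stood apart at 1.56.

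The remaining ratios, except that of *Eomes*, also separated Sham from irradiated spleens. *Klrc1* per *Klrd1* was 0.159, 0.152 and 0.159 in Sham, a coefficient of variation of 2.57%, and 0.849 ± 0.144 (SD, n = 3) in WBIR and 0.942 ± 0.209 (SD, n = 3) in RCI. The chains of the inhibitory CD94/NKG2A pair were therefore counted in a different proportion after irradiation, within which *Klrd1* no longer exceeded *Klrc1* several-fold. *Klrk1* per *Klrd1* was 0.211, 0.223 and 0.238 in Sham, 1.45 ± 0.339 in WBIR and 1.51 ± 0.468 in RCI (SD, n = 3). *Gzma* per *Klrd1* was 0.549, 0.477 and 0.251 in Sham and 2.16 or more in each irradiated sample. *Prf1* per *Klrd1* was 0.193, 0.121 and 0.0978 in Sham, 0.535 ± 0.0701 in WBIR and 0.401 ± 0.0203 in RCI. For these 5 members the 12 irradiated samples lay above all 3 Sham samples, and none lay below, where 50.6% of the other 425 genes lay above and 0.706% below. *Eomes* per *Klrd1* was 0.151, 0.112 and 0.0956 in Sham and overlapped the irradiated samples, whose lowest value was the 0.135 of RCI replicate 3.

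**Figure D3:**
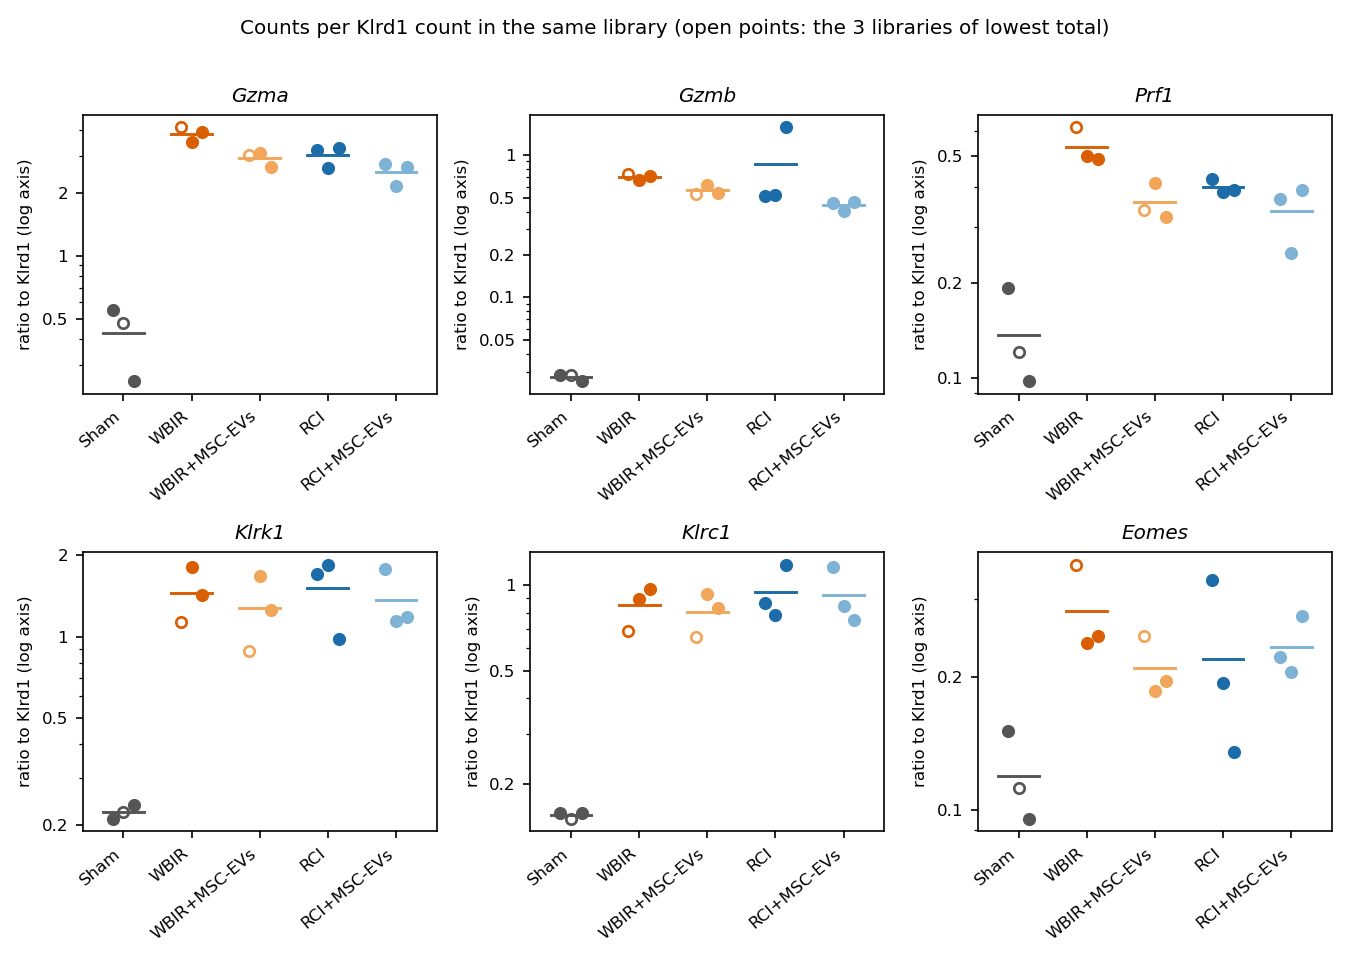
Barcodes of 6 members per *Klrd1* barcode of the same library (log axis), with 1 point per sample, a line at the mean of 3 and open points for the 3 libraries of lowest total. Sham lies below every irradiated sample in each panel but that of *Eomes*, and for *Gzmb* it lies at 0.0257 to 0.0285 against 0.405 or more in the irradiated samples.

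To examine the burn at a shared dose of radiation, RCI was compared with WBIR. The burn cannot be told apart here from the anaesthesia, morphine and fluid that came with it. In untreated mice no member was called, beside 0.704% of all genes (3 of 426). *Prf1* (log2FC -1.47, SE 0.51, adjusted p = 0.148) and *Gzma* (-1.39, SE 0.56, adjusted p = 0.235) had an unadjusted p under 0.05 in edgeR, as did 71 of all genes. With each burn group set against its matching irradiated group and the differences averaged, all 7 members were lower, by a median log2FC of -1.09 against 0.23 over all genes. None of the 7 passed the adjusted threshold, where 3.05% of all genes did, each of them higher with the burn. All 7 had an unadjusted p under 0.05, as did 110 of the 426 genes.

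For *Prf1*, the 6 samples with a burn had scaled counts of 40.9 to 71.9 with a median of 61.3, and the 6 without had 86.4 to 274.2 with a median of 104. The groups did not overlap, and the averaged log2FC was -1.27 (SE 0.36, adjusted p = 0.0569). *Gzma* had 342.9 to 573.2 with the burn (median 416.3) and 682 to 1832 without (median 799.5), again with no overlap (-1.31, SE 0.40, adjusted p = 0.0585). *Klrk1* had 101.7 to 301.7 with the burn (median 262.4) and 320.2 to 533.3 without (median 360.3), also with no overlap (-0.78, SE 0.33, adjusted p = 0.151). Lower ranges without overlap were found for these 3 of the 7 members, beside 2.11% of all genes, and higher ranges for none, beside 7.51%. For *Gzmb* (-1.09, SE 0.36, adjusted p = 0.0810), *Klrd1* (-0.98, SE 0.37, adjusted p = 0.109), *Eomes* (-1.11, SE 0.47, adjusted p = 0.150) and *Klrc1* (-0.77, SE 0.30, adjusted p = 0.123) the ranges overlapped. With edgeR none of these averaged differences was called.

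The call on the burn depended on the scaling. With TMM or median-of-ratios scaling, 6 of the 7 members, all but *Eomes*, were called lower with a burn, with log2FC of -0.96 to -1.50 under TMM. The share of all genes called lower was 4.23% under each of these scalings. DESeq2 called 4 members lower, beside 2.82% of all genes. Both highest libraries of the group without a burn were among the 3 of lowest total. Without those 3 libraries the differences were smaller, at -0.74 for *Gzma* and -0.72 for *Prf1* (adjusted p = 0.0348 for each), which were then the 2 members called, both lower, beside 1.41% of all genes called lower. The other 5 lay between -0.39 and -0.60.

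**Figure D4:**
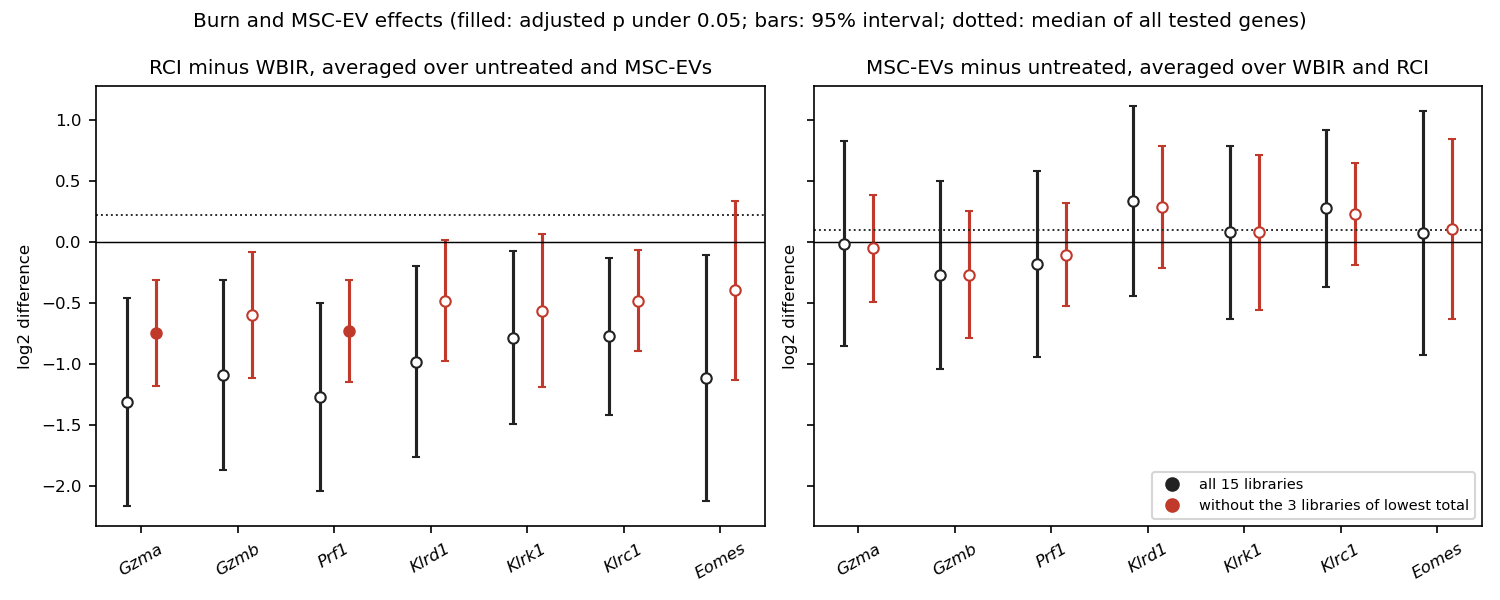
Log2 differences with 95% intervals for the 7 members, for RCI minus WBIR averaged over untreated and MSC-EV groups (left) and for MSC-EVs minus untreated averaged over both injuries (right), with all 15 libraries in black and without the 3 of lowest total in red. Filled points have an adjusted p under 0.05 and dotted lines mark the median of the 426 genes. All 7 members lie below 0 at the left, where *Gzma* and *Prf1* are filled in red, and every interval at the right spans 0.

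To determine if MSC-EVs moved these genes, each treated group was compared with its untreated injury. The pairs of groups overlapped for every member. The mean scaled count of *Klrd1*, for example, was 363 ± 208 in WBIR+MSC-EVs and 289 ± 136 in WBIR, and 185 ± 70.3 in RCI+MSC-EVs and 143 ± 34.5 in RCI (SD, n = 3). That of *Gzmb* was 200.2 ± 104 and 206 ± 105, and 80.6 ± 24 and 111 ± 45, in the same order. No member was called in either comparison, beside 0.0% of all genes in each, and no member had an unadjusted p under 0.05 with edgeR, where 11 genes did in WBIR and 14 in RCI.

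Deviations of same-numbered samples correlated positively within each injury, and these samples were therefore also set side by side. The pairing was thus taken from these same data. The strongest correlation, at 0.68, was between WBIR replicate 1 and WBIR+MSC-EVs replicate 1, both among the 3 libraries of lowest total. The labels name no pairs and differently numbered samples were not compared, so the matching may be arbitrary. For the members it did not hold throughout: 5 were highest of their group in RCI replicate 1 and 5 were lowest in RCI+MSC-EVs replicate 1. In WBIR, *Klrd1* was higher with MSC-EVs in all 3 pairs, by 0.43, 0.17 and 0.25 on the log2 scale. *Klrc1*, by 0.36, 0.23 and 0.0354, and *Klrk1*, by 0.0841, 0.0532 and 0.0765, were also higher in all 3. *Prf1* was lower in all 3 pairs, with log2 differences of -0.43, -0.11 and -0.35, and so were *Gzma* and *Eomes*, whereas *Gzmb* was mixed. Thus 3 members were higher in every pair, beside 24.9% of all genes, and 3 were lower, beside 7.75%. In RCI no member had the same direction in all 3 pairs, beside 28.9% of all genes higher and 10.1% lower. With the pairing as a block in the fit, no member was called in either injury, and the *Klrd1* log2FC was 0.31 (95% interval -0.77 to 1.39, adjusted p = 0.996 with edgeR) in WBIR and 0.39 (-0.71 to 1.48, adjusted p = 0.956) in RCI.

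Averaged over both injuries, the MSC-EV effect was 0.34 for *Klrd1* (95% interval -0.44 to 1.12), 0.28 for *Klrc1* (-0.36 to 0.92), 0.08 for *Klrk1* (-0.62 to 0.79) and 0.08 for *Eomes* (-0.92 to 1.08) on the log2 scale. It was -0.01 for *Gzma* (-0.85 to 0.83), -0.17 for *Prf1* (-0.94 to 0.59) and -0.27 for *Gzmb* (-1.04 to 0.51). None was called, again beside 0.0% of all genes, and 14 genes had an unadjusted p under 0.05 with edgeR. The intervals leave room for changes of about 1 on the log2 scale in either direction for *Eomes*, upward for *Klrd1*, and downward for *Gzmb* and *Prf1*. That of *Gzma* reached -0.85 and 0.83. The narrowest, that of *Klrc1*, still reached 0.92. Whether MSC-EVs acted differently in WBIR and RCI was tested with an interaction term, which was called for no member and for no other gene.

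Other genes of the NK pathway were counted from lists chosen by function. Of the further NK receptors, 19 of 35 were in the table and 11 were tested. In WBIR and in RCI alike 2 of these 11 receptors were called higher and 3 lower. The shares of all genes were 21.6% higher and 46.9% lower in WBIR, and 26.5% and 43.0% in RCI. The receptors did not exceed these shares. The receptors called higher were *Fcgr4*, a receptor for antibody Fc parts found on monocytes (2.20 and 2.76 in WBIR and RCI), and *Cd244*, encoding the 2B4 receptor (2.07 and 2.46). The largest falls were in *Cd96* (-2.28 and -1.99) and *Tigit* (-1.90 and -2.29), both receptors for nectin-like ligands. *Klra4*, *Klra7* and *Klra8*, members of the Ly49 family of MHC class I receptors, were not called in either injury. Those called higher are expressed in myeloid cells. The summed scaled count of the macrophage and monocyte markers was 1902 to 2719 in Sham, 9925 to 16770 in WBIR and 14850 to 39903 in RCI. The part of myeloid cells in these calls was not tested.

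Of the other cytotoxic mediators, 5 of 12 were in the table and 4 were tested. *Lta*, encoding lymphotoxin, fell in both injuries (log2FC -1.82 in WBIR and -1.61 in RCI). *Tnfsf10*, encoding the death ligand TRAIL, was called lower in RCI alone (-0.90, adjusted p = 0.0260) and was not called with TMM (-0.43). *Tnf* was called higher in RCI (1.75, adjusted p = 0.0206), where the samples ranged from 47.3 to 264.2 against 15.2 to 54.6 in Sham and the highest was RCI replicate 3. *Fasl*, the ligand of the death receptor Fas, was not called. *Ifng* was below the level tested, with at most 14 barcodes in any library.

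Among the adaptors and transcription factors of these cells, all 13 in the table were tested, with 2 called higher and 8 lower in each injury. Of all genes, 21.6% were called higher and 46.9% lower in WBIR, and 26.5% and 43.0% in RCI. *Fcer1g* (2.85 and 2.98 in WBIR and RCI) and *Tyrobp* (1.68 and 2.05), signalling adaptors shared by NK and myeloid cells, were the 2 called higher. *Ikzf3* (-3.55 and -3.37) and *Runx3* (-3.16 and -3.41), lymphocyte transcription factors, fell most. *Hcst*, which encodes DAP10, the adaptor through which NKG2D signals, fell as well (-2.36 and -2.37), whereas *Klrk1* itself was not called. *Tbx21*, which encodes T-bet, the T-box relative of Eomes, was not called in either injury (-0.01 and -1.06).

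Of the cytokines and receptors that act on NK cells, 16 of 17 were tested. In WBIR 2 were called higher and 10 lower, beside 21.6% and 46.9% of all genes. In RCI 3 were called higher and 9 lower, beside 26.5% and 43.0%. *Il18* (3.39 and 3.44 in WBIR and RCI) and *Il15* (1.83 and 2.36), cytokines that activate and maintain NK cells, rose most. *Il12a*, encoding the p35 subunit of IL-12, fell (-3.80 and -2.73), as did the IL-18 receptor chains *Il18r1* (-2.42 and -2.53) and *Il18rap* (-2.19 and -2.91). With TMM scaling the counts were 5 higher and 6 lower in WBIR and 3 higher and 6 lower in RCI. The shares of all genes under TMM were 31.7% higher and 35.2% lower in WBIR, and 35.4% and 35% in RCI. Each gene named here kept its call. Of the ligands of NK receptors only 4 of 11 were in the table and 3 were tested. *H2-K1*, a classical MHC class I gene, fell in both injuries (-1.73 and -1.16), and *Cd48*, the ligand of 2B4, was called lower in WBIR (-0.99, adjusted p = 0.0134) but not with TMM (-0.25).

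Markers of neutrophils also fell, with 4 of 5 called lower in each injury, beside 46.9% of all genes in WBIR and 43.0% in RCI. Their summed scaled count ranged from 7835 to 44357 in Sham, with the highest value in Sham replicate 2, and from 1439 to 10050 in the irradiated samples. *Cd3e*, a defining marker of T cells, was still counted 107 times or more in every library. The part of T cells in the counts of the members, *Klrd1* and *Klrc1* included, was not tested.

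The genes whose pattern was most like that of the members were sought among the tested genes outside the list, by the correlation of log2 scaled counts with the members' mean z score. Over all 15 samples these were *Ccr2* (Pearson r = 0.94, Spearman rho = 0.89), a chemokine receptor of monocytes and some NK and T cells, *Klra7* (0.94 and 0.84) and *Klra8* (0.92 and 0.71). Over the 12 irradiated samples, each centred on its group mean, they were *Klra7* (0.98 and 0.85), *Ccr2* (0.97 and 0.94) and *Ccl5* (0.96 and 0.95), a chemokine of cytotoxic lymphocytes. All points share the scaling and depth of their library, and the correlations are descriptions. Among the members, the 21 pairwise correlations over the centred irradiated samples had a median of 0.78, from 0.06 for *Gzmb* with *Klrk1* to 0.97 for *Gzma* with *Prf1*. *Ccl5* was chosen for this likeness, and its levels are given as a description. Its scaled counts were 1567, 3412 and 1548 in Sham, 2080, 839.6 and 1155 in WBIR, and 742.7, 695.1 and 438.2 in RCI, so that its mean was highest in Sham, unlike those of *Gzma* and *Gzmb*.

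In the order of group means, *Gzma* and *Gzmb* were highest in WBIR, *Klrk1* and *Klrc1* in WBIR+MSC-EVs, and *Prf1*, *Klrd1* and *Eomes* in Sham. Neighbouring groups in that order overlapped for all members except at 2 places, between Sham and WBIR+MSC-EVs for *Klrd1* and between WBIR+MSC-EVs and RCI+MSC-EVs for *Prf1*. RCI had the lowest mean of the 5 groups for all members but *Gzmb*, which was lowest in Sham.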

How the data were processed

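The authors lysed red blood cells, isolated RNA from spleen cell suspensions, hybridised 100 ng to the panel and counted barcodes on the digital analyser. The deposited values are raw barcode counts, read from whole numbers whose totals differed between libraries. None of the 8415 values was 0, and a zero could have been stored as 1. Background was not subtracted. Libraries were scaled to the geometric mean of 14 reference genes. After scaling, some of these genes themselves differed from Sham. The log2 differences in WBIR and RCI were 2.83 and 3.07 for *G6pdx* and 1.29 and 1.65 for *Gapdh*. They were -1.70 and -1.93 for *Polr1b* and -0.55 and -2.53 for *Tubb5*, while *Sdha* was at -0.15 and -0.06. Testing was limited to the 426 endogenous genes that averaged 20 counts or more and used the quasi-likelihood F test of edgeR 4.0.16 in R 4.3.3 (robust), with 1 coefficient per group, all 15 samples in the fit and 10 residual degrees of freedom. The common dispersion was 0.110. Tests were two-sided, with Benjamini-Hochberg adjustment over the 426 genes within each comparison and calls at 0.05. The standard error is the absolute log2FC over the square root of F. Functions were tested on simulated data.

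Alternatives were TMM and median-of-ratios scaling, the median reference gene, no filter, DESeq2 1.42.0, limma 3.58.1 with a pseudocount of 10, the replicate number as a block, and each library left out. Leaving out the 3 libraries of lowest total and the ratios to *Klrd1* were chosen after seeing the data. Deviations of same-numbered samples correlated at 0.68, 0.39 and 0.24 between WBIR and WBIR+MSC-EVs and at 0.26, 0.33 and 0.52 between RCI and RCI+MSC-EVs. They correlated at -0.22, 0.25 and -0.06 between WBIR and RCI. Numbers were treated as pairs within an injury on this ground alone. No label pairs the samples, and differently numbered samples were not compared.

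The members and lists were chosen with earlier results of these data known. By rule, all members were named, with the 3 genes most like them and, from each list, up to 2 called genes with the largest rise and 2 with the largest fall against Sham. *Hcst*, the Ly49 genes, *Tbx21*, *Fasl* and *Ifng* were named outside it, after their values were seen. RefSeq tables gave names and promoter windows.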

Additional observations from a re-analysis of the deposited data

How the results depend on the processing

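Every call against Sham that was made in the main setting kept its direction under all alternatives, and apart from *Gzmb* in RCI, *Eomes* in RCI+MSC-EVs and, relative to T cell genes, *Eomes* in WBIR and *Klrd1* in RCI, no such call was lost. The number of members called rose from 2 to 4 in WBIR against Sham with TMM and with median-of-ratios scaling, where 66.9% and 67.6% of all genes were called. Of these 4, 3 were higher, beside 31.7% and 31.9% of all genes, and 1 was lower, beside 35.2% and 35.7%. In WBIR+MSC-EVs the number of members called rose from 2 to 5 with median-of-ratios scaling (66.0% of all genes). Of these, 4 were higher, beside 31.9%, and 1 was lower, beside 34%. Without the 3 libraries of lowest total the number was 4 (64.1%). In RCI it rose from 4 to 5 with DESeq2 (71.1%) and with the median reference gene (69.5%). For the averaged burn effect it rose from 0 to 6 with TMM (6.57%) and with median-of-ratios scaling (6.10%), to 4 with DESeq2 (16%) and to 2 without the 3 libraries (11.7%). Deviations of same-numbered samples correlated at -0.40, -0.32 and 0.08 between Sham and WBIR and at 0.25, -0.13 and -0.06 between Sham and RCI. These values of both signs give no ground for pairing there. With the replicate block 2 members were called in WBIR (67.6% of all genes) and 3 in RCI (68.3%) against Sham, *Gzmb* in RCI having a log2FC of 1.39 (adjusted p = 0.0518 with edgeR). The block changed no other call. The causes were not tested.

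Directions turned only for members that were not called. In WBIR against Sham *Prf1* became 0.36 with TMM and 0.35 with median-of-ratios, and *Klrc1* 0.63, 0.64, 0.0168 with limma and 0.32 without the 3 libraries. Without those libraries *Gzma* was 0.22 and *Klrk1* 0.0064 in RCI, and *Gzma* 0.29, *Klrk1* 0.11 and *Klrc1* 0.0742 in RCI+MSC-EVs. For the averaged MSC-EV effect *Gzma* was 0.00074 with the block, *Klrk1* -0.0181 and -0.0294, and *Eomes* -0.0299 and -0.0445, with TMM and median-of-ratios. Relative to T cell genes *Klrd1* in WBIR was -0.0537 with the block and -0.15 without the 3 libraries, and *Eomes* in RCI 0.12 without them.

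With each library left out in turn, the lowest and highest log2FC in WBIR against Sham were -1.01 and 0.23 for *Prf1*, -0.26 and 0.80 for *Klrk1*, and -0.45 and 0.57 for *Klrc1*. In RCI they were -1.13 and 0.22 for *Gzma* and -1.06 and 0.00603 for *Klrk1*. In WBIR+MSC-EVs they were -0.0475 and 1.52 for *Gzma*, -0.20 and 0.87 for *Klrk1*, and -0.25 and 0.78 for *Klrc1*, and in RCI+MSC-EVs -1.06 and 0.29, -0.96 and 0.11, and -0.94 and 0.0742. For the averaged MSC-EV effect they were -0.31 and 0.26 for *Gzma*, -0.41 and 0.14 for *Prf1*, -0.10 and 0.19 for *Klrk1*, and -0.27 and 0.45 for *Eomes*. Relative to T cell genes they were -0.50 and 0.37 for *Klrd1* in WBIR and -0.80 and 0.12 for *Eomes* in RCI. With 3 samples per group, precision is limited for every member.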

Other observations

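*Gzmb* was counted in a narrow proportion to *Gzma* after irradiation. There were 0.178, 0.191 and 0.181 *Gzmb* barcodes per *Gzma* barcode in WBIR, 0.176, 0.198 and 0.203 in WBIR+MSC-EVs, and 0.166, 0.187 and 0.175 in RCI+MSC-EVs, against 0.0519, 0.0596 and 0.103 in Sham. RCI replicates 1 and 2 had 0.161 and 0.199, and RCI replicate 3 had 0.474. These values are a description, given with no test.

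*Klrc2*, which encodes the activating NKG2C partner of CD94, was counted 12 to 38 times per library and had scaled counts of 10.1 to 37.7 in Sham, 16.7 to 49.5 in WBIR and 21.8 to 34.2 in RCI. *Klrc3*, a further partner chain, had at most 11 barcodes in any library.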
